A study of Homo sapiens with 12 samples.

Results

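The cyclin-dependent kinase (CDK) inhibitors and the RB family are the 10 genes CDKN1A, CDKN1B, CDKN1C, CDKN2A, CDKN2B, CDKN2C, CDKN2D, RB1, RBL1 and RBL2. They were taken by symbol from a table of 56508 symbols, and all 10 were found. All 10 also reached the minimum level for a test, a value of 1 or more in at least 3 of the 12 libraries, as did 15456 genes in all. CDKN1C passed that minimum through the H211 libraries alone, and CDKN1A, at 1 or more in 6 H211 and 2 H82 libraries, passed it with them; for both, the difference between the lines is therefore given as a description. The table holds TPM-like values, taken as rescaled between libraries. They give a level per transcript length, so that levels of different genes can be set side by side.

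These genes form the brake on entry into S phase. The CIP/KIP proteins (p21, p27 and p57) bind cyclin-CDK complexes and act mainly on CDK2, while the INK4 proteins (p16, p15, p18 and p19) bind CDK4 and CDK6 and keep them from the D-type cyclins. When CDK4 and CDK6 are held off, the pocket proteins RB1, p107 and p130 stay unphosphorylated and hold E2F transcription factors. Small cell lung cancer is known for frequent loss of RB1 and for high p16.

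The groups were H211 with ORY-1001, H211 control, H82 with ORY-1001 and H82 control, with 3 libraries each. H211 and H82 are established human small cell lung cancer lines, both given as wild type, and ORY-1001 is an inhibitor of the histone demethylase LSD1, used here at 1 µM. Controls received vehicle, given as PBS. The labels give 7 days of treatment and the treatment protocol gives 10 days, which could not be reconciled. Each line stands for 1 tumour, and no label ties the 3 libraries of a group to separate cultures; the p-values therefore rest on a spread between samples that may be technical.

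Column totals ran from 967415 to 1.112e+06, and across genes the r between libraries within a group was 0.9881 to 0.9912 (genes are not independent replicates). The summed level of 6 neuroendocrine markers was 441 to 446 in H82 with ORY-1001 and 611 to 629 in H82 controls. In H211 it was 106 to 110 with ORY-1001 and 90.8 to 92.8 in controls. The sum of 6 tuft-cell markers was 1077 to 1118 in H211 with ORY-1001 and 1383 to 1397 in H211 controls. In H82 it was 20.1 to 22.9 with ORY-1001 and 21.7 to 28.1 in controls. The sums do not stand for each marker: NEUROD1 averaged 130 in treated and 137 in control H82, and ASCL2 181 in treated and 176 in control H211. Blood transcripts differed between libraries. The summed level of 10 erythroid markers was 1.85, 1.91 and 118 in H82 with ORY-1001 and 42.0 to 56.8 in H82 controls, and 46.9, 36.0 and 0.306 in H211 with ORY-1001 against 110, 96.9 and 41.9 in H211 controls. For 12 myeloid markers the sum was 28.2 to 37.0 in H82 with ORY-1001 against 0.460 to 0.625 in H82 controls, where 7 of the 12 were at 0 in every library, and 1.89 to 34.7 in H211 with ORY-1001 against 2.88 to 159 in H211 controls. Lymphocyte markers (10 genes) summed to 1.30 to 3.14 in H82 with ORY-1001 against 1.65 to 3.08 in H82 controls. In H211 they summed to 14.9 to 17.7 with ORY-1001 against 14.6 to 26.1 in controls, of which CD79B made up 15.3 and 12.6 on average. Fibroblast markers (6 genes) summed to 64.8 to 71.2 in H211 with ORY-1001 against 6.16 to 6.37 in H211 controls, of which DCN made up 63.9 and 4.10 on average. The part of these transcripts in the results was not tested, and each result is also given without 4 libraries that stood apart in blood transcripts (H82 ORY-1001 replicate 3, H211 ORY-1001 replicate 3 and H211 control replicates 1 and 2) wherever that ended a call. Leaving them out does not remove the contrast in H82, where the treated libraries that remain still have erythroid sums below and myeloid sums above all H82 controls. In such bulk samples, fewer cells of a type and less RNA per cell cannot be told apart.

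The sequences before the start sites of 4 members with a call for the drug described below are shown, though the RBL1 call was narrow. CDKN1B and RBL2, also called, are not shown. For CDKN1B, 244 of the 250 bases before the start site lie in annotated untranslated region. The stretches shown differ in the motifs they hold, which need not be so for other start sites of the same genes. They come from RefSeq on GRCh38.p14, where 9 of the 10 members matched 13 start sites, and CDKN1C had no entry. Bases are given 5′ to 3′ on the strand of the gene, up to the base before the start site except for CDKN2D, where the stretch ends before the annotated first exon. Capitals mark an exact match, on either strand, to E2F motifs (TTTGGCGC, TTTCGCGC or TTTCCCGC), the CHR element (TTTGAA), the GC box (GGGCGG) or the E-box (CACGTG).
RBL1, chr20:37095998-37096247, minus strand: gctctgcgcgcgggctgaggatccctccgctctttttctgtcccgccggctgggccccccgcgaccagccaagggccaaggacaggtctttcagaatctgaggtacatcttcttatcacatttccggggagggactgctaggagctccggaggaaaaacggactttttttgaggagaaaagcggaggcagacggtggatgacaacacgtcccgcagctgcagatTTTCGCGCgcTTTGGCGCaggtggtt
CDKN2C, first start site, chr1:50960495-50960744, plus strand: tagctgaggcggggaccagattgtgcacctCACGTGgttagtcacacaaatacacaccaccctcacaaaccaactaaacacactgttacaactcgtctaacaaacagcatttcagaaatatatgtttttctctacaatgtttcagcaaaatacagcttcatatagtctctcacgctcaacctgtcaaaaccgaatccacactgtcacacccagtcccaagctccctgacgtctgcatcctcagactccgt
CDKN2D, chr19:10569060-10569229, minus strand: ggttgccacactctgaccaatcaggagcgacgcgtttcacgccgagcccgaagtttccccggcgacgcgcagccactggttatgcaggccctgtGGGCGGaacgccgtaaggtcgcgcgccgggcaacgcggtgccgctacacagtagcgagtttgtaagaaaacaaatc
CDKN2A, first start site, chr9:21995325-21995574, minus strand: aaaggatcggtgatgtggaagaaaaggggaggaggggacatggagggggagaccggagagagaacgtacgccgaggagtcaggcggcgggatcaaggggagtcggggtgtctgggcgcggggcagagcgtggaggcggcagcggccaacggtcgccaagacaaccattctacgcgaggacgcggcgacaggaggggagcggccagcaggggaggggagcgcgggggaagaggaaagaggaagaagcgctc

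RBL1 held 2 E2F matches, at bases -26 to -19 and -16 to -9 from its start, and no other member window searched held any. CDKN1C had no window, and that of RB1, with its start at chr13:48476450, lies inside the gene. The sequence before the 5′ end of RB1 was therefore not searched. In windows of 300 bases (250 before and 50 after the start), 2.737% of 35116 RefSeq start sites held any of the 3 E2F motifs and 0.1139% held at least 2 matches. The printed RBL1 stretch also lies over an exon of the antisense gene AL136172.1. The printed CDKN2C stretch held an E-box at -220 to -215, a motif found in 7.256% of the windows. The window of the second CDKN2C start site held 6 GC boxes. That of the third held 1 GC box and an E-box at -69 to -64. CDKN2D held 3 GC boxes in its window, 1 of them in the printed stretch at -156 to -151. The GC box was in 44.95% of windows. The CHR element was in 15.16% of windows and, among the members, in 1 window of RBL2. No motif was found in the printed CDKN2A stretch, which says only that these letters are absent there. The window of the second CDKN2A start site held 2 GC boxes.

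In the control cultures all 10 members were called at an adjusted p under 0.05 (limma, Benjamini-Hochberg over all genes tested), where 80.5% of all genes tested were called; CDKN1A and CDKN1C are in these counts although the minimum favoured H211 for them. H211 controls were higher in 6 members, all 3 CIP/KIP genes, CDKN2D, RB1 and RBL2, against a background of 39.7% called higher, and lower in 4, CDKN2A, CDKN2B, CDKN2C and RBL1, against 40.8% called lower. The 2 sets of control libraries did not overlap in any member, as for 81.7% of genes. With ORY-1001, 6 of the 10 members were called in H82, where 43.0% of all genes were, and 2 of 10 in H211, where 18.6% were. No property of the set is read from these shares, and the results below concern single genes.

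**Figure D1:**
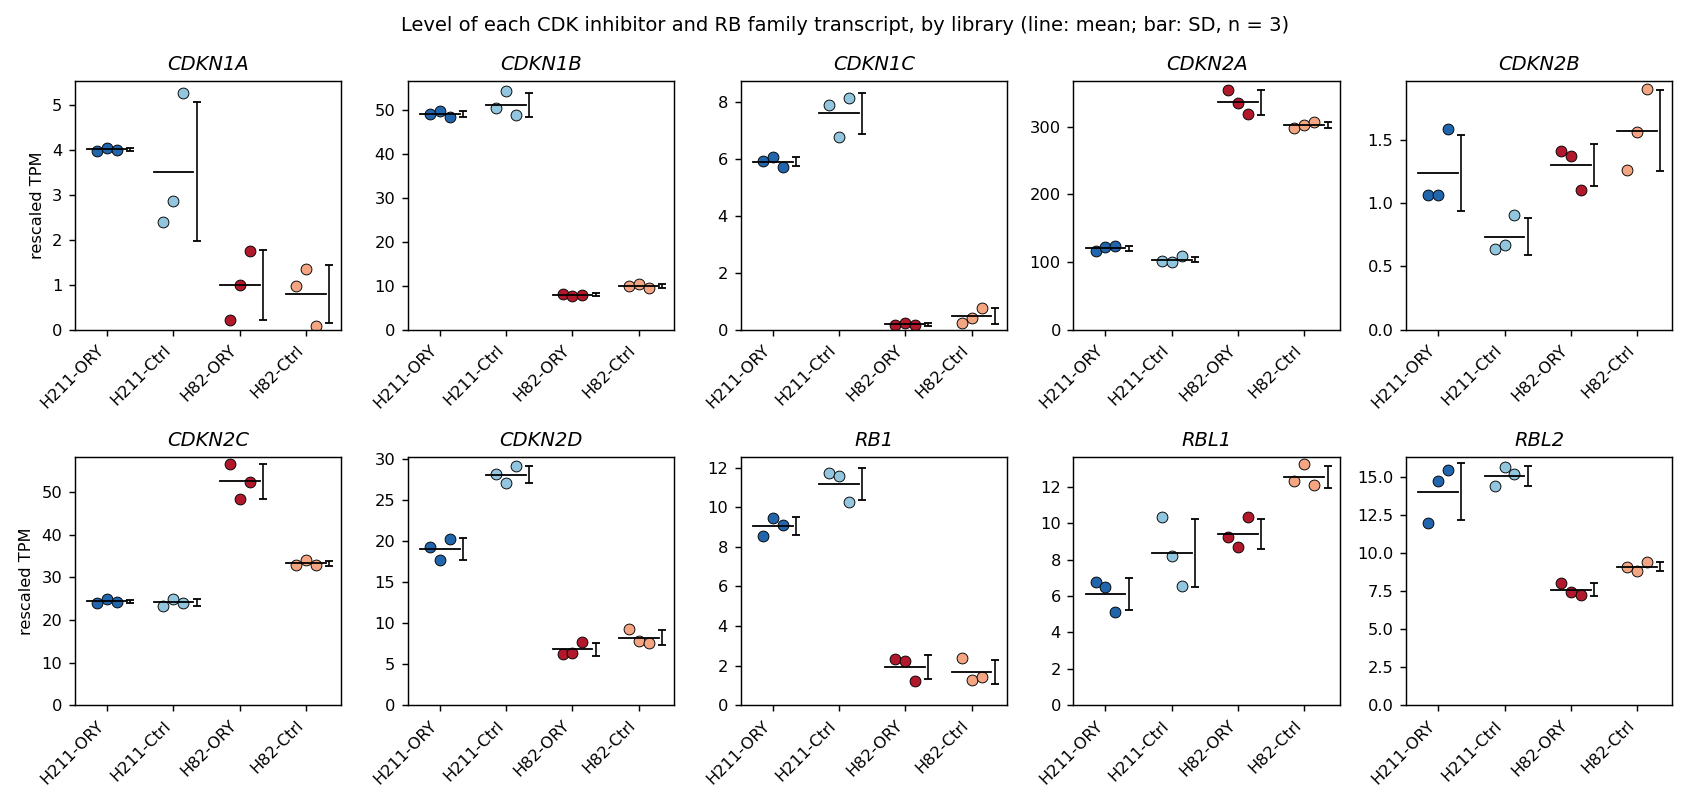
Level in rescaled TPM (vertical axis, from 0) of each of the 10 transcripts in every library, by group; points are libraries, lines are means and bars are SD (n = 3). CDKN2C lies between 48.5 and 56.6 in H82 with ORY-1001 and between 32.9 and 34.0 in H82 controls, while CDKN2D lies between 17.7 and 20.3 in H211 with ORY-1001 and between 27.1 and 29.1 in H211 controls.

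Among the CIP/KIP genes, CDKN1B made up most of the transcripts in both lines and fell with ORY-1001 in H82. CDKN1B (chr12:12715058-12722371) encodes p27, which binds cyclin E-CDK2. In H82 it was at 8.21, 7.65 and 7.97 with ORY-1001, against 9.97, 10.5 and 9.41 in controls. Every treated library lay below every control. The mean was 7.94 ± 0.279 with ORY-1001 and 9.95 ± 0.537 in controls (SD, n = 3 each), a log2 change of -0.29 with a 95% interval of -0.41 to -0.17 (adjusted p = 0.00130). In H211, CDKN1B was at 49.1, 49.9 and 48.4 with ORY-1001, against 50.4, 54.3 and 48.8 in controls. These groups overlapped, and the log2 change of -0.06 was not called (interval -0.18 to 0.06, adjusted p = 0.536). The control levels stood 5.14-fold apart, at 51.2 ± 2.83 in H211 and 9.95 ± 0.537 in H82 (adjusted p = 7.90e-12).

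CDKN1A (chr6:36676460-36687339) encodes p21, the inhibitor best known as a target of p53, and it was low throughout. In H82 the libraries held 0.205, 0.988 and 1.76 with ORY-1001, against 0.961, 1.35 and 0.0754 in controls. The groups overlapped widely, and the change had an interval of -0.61 to 0.89 on the log2 scale (adjusted p = 0.787). In H211 it was at 3.99, 4.06 and 4.01 with ORY-1001, against 2.41, 2.88 and 5.28 in controls. Control replicate 3 lay above all treated libraries and the other 2 controls lay below them, so no difference was called (interval -0.55 to 0.95, adjusted p = 0.741). The level averaged 3.52 ± 1.54 in H211 controls and 0.794 ± 0.652 in H82 controls (SD, n = 3 each), a ratio of 4.43. That ratio was 3.05 without H82 control replicate 3 and 6.80 without H82 control replicate 2.

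CDKN1C (chr11:2883213-2885773) encodes p57, an inhibitor from an imprinted region. The H82 values were 0.152, 0.236 and 0.168 with ORY-1001, against 0.238, 0.397 and 0.769 in controls, levels at the low end of the table. In H211 the libraries held 5.91, 6.04 and 5.71 with ORY-1001, against 7.89, 6.76 and 8.12 in controls. All 3 treated libraries lay below all 3 controls in each line, yet neither change was called. The log2 changes were -0.29 in H82 (adjusted p = 0.0808) and -0.31 in H211 (adjusted p = 0.107). Adding 1 to each value understates the H82 change, where the control mean was 2.52-fold above the treated mean, against 1.29-fold in H211. With a pseudocount of 0.1 the H82 change was -0.89 and called (limma, adjusted p = 0.0275), as it was with quantile normalization (adjusted p = 0.0493). The H211 change was called with a pseudocount of 5 (limma, adjusted p = 0.0144). Leaving out H82 control replicate 1 gave an adjusted p of 0.0225 in H82, and leaving out H82 control replicate 3, which enters the shared estimate of the spread, gave 0.0465 in H211. CDKN1C averaged 7.59 ± 0.727 in H211 controls and 0.468 ± 0.273 in H82 controls (SD, n = 3 each), a ratio of 16.2.

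The INK4 genes moved in different directions. CDKN2C rose with ORY-1001 in H82, CDKN2D fell in H211 and narrowly in H82, and CDKN2A rose slightly in both. CDKN2C (chr1:50960745-50974633) encodes p18. In H82 it was at 56.6, 48.5 and 52.4 with ORY-1001, against 32.9, 34.0 and 33.0 in controls. The lowest treated library lay well above the highest control. The means were 52.5 ± 4.08 with ORY-1001 and 33.3 ± 0.589 in controls (SD, n = 3 each), a ratio of 1.58 and a log2 change of 0.64 (interval 0.52 to 0.76, adjusted p = 4.82e-06). Of the 15456 genes tested, 757 had a higher log2 change in H82. In H211 the level was 24.0, 24.8 and 24.2 with ORY-1001 and 23.4, 24.9 and 24.1 in controls. Those libraries overlapped fully, and the interval of -0.11 to 0.13 lies below the change measured in H82 (adjusted p = 0.909). H82 controls were 1.38-fold above H211 controls (adjusted p = 1.03e-05). The call in H82 was kept in all 23 alternatives.

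CDKN2D (chr19:10566462-10569059) encodes p19 and is the one INK4 gene higher in H211, with 28.1 ± 1.02 in H211 controls and 8.25 ± 0.905 in H82 controls (3.41-fold, adjusted p = 6.84e-09). The H211 values were 19.3, 17.7 and 20.3 with ORY-1001, against 28.2, 27.1 and 29.1 in controls. All treated libraries were below all controls, and the log2 change was -0.54 (interval -0.74 to -0.34, adjusted p = 0.00190). Among all genes tested, 531 had a lower log2 change in H211. The call was kept in all 23 alternatives, with a highest adjusted p of 0.0489 when the 4 libraries apart in blood transcripts were left out. In H82, CDKN2D was at 6.32, 6.35 and 7.76 with ORY-1001, against 9.28, 7.84 and 7.61 in controls. Treated replicate 3 lay above control replicate 3, and the log2 change of -0.24 passed the threshold narrowly (interval -0.44 to -0.04, adjusted p = 0.0484). That call was lost on leaving out any of 9 single libraries, the exceptions being H82 ORY-1001 replicate 3, H82 control replicate 3 and H211 ORY-1001 replicate 2, with adjusted p between 0.0128 and 0.181 over the 12. Kept in 8 of 23 alternatives, it was also lost with a pseudocount of 5, no filter, quantile normalization or totals without mitochondrial genes. A variance prior without a trend and a fit of each line alone ended it too (limma, adjusted p = 0.0542 and 0.107).

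CDKN2A (chr9:21967753-21995301) holds the transcripts of p16 and of ARF, an inhibitor of the p53 ligase MDM2, and the table gives 1 value for both. It was the most abundant member in every library. In H82 the libraries held 355, 334 and 319 with ORY-1001, against 297, 303 and 307 in controls. In H211 it was at 115, 122 and 123 with ORY-1001, against 102, 101 and 109 in controls. All treated libraries lay above all controls in each line. The log2 change was 0.15 in H82 (interval 0.05 to 0.25, adjusted p = 0.0225) and 0.21 in H211 (interval 0.11 to 0.31, adjusted p = 0.00880). The H82 call was lost with quantile normalization (adjusted p = 0.174), and without H82 ORY-1001 replicate 1 (0.0820), H82 control replicate 1 (0.0691) or H82 control replicate 2 (0.0544). The H211 call was lost without the 4 libraries apart in blood transcripts, where the log2 change was 0.13 (adjusted p = 0.316). H211 controls averaged 104 ± 4.34 and H82 controls averaged 302 ± 4.95, above 97.3% of the genes tested (2.92-fold higher in H82, adjusted p = 3.74e-11).

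CDKN2B (chr9:22002903-22009363) encodes p15, lies next to CDKN2A and was near the bottom of the range. In H211 the libraries held 1.06, 1.06 and 1.59 with ORY-1001, against 0.635, 0.665 and 0.904 in controls, with no overlap. The log2 change of 0.36 was not called (interval 0.07 to 0.65, adjusted p = 0.0780). The H82 values were 1.41, 1.37 and 1.11 with ORY-1001, against 1.26, 1.56 and 1.90 in controls, which overlapped (log2 change -0.16, adjusted p = 0.367). H82 controls were 2.14-fold above H211 controls (adjusted p = 0.00176). The antisense RNA CDKN2B-AS1 covers all 6461 bases of CDKN2B and 524 bases of CDKN2A, and since no source used here states the strand setting of the counting, reads of the 2 strands cannot be told apart. CDKN2B-AS1 itself averaged 0.727 with ORY-1001 and 0.299 in controls in H211 (adjusted p = 0.0987), and 1.16 with ORY-1001 and 1.26 in controls in H82 (adjusted p = 0.835).

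In the RB family, RB1 was low in H82 and did not pass the test for the drug in either line, while the calls for RBL1 and RBL2 in H82 were narrow. RB1 (chr13:48303726-48599436) encodes the retinoblastoma protein, the pocket protein that holds the activating E2Fs. The H211 values were 8.55, 9.47 and 9.09 with ORY-1001, against 11.7, 11.6 and 10.2 in controls, with no overlap. The log2 change of -0.28 had an interval of -0.65 to 0.10 (adjusted p = 0.303). In H82 it was at 2.35, 2.22 and 1.24 with ORY-1001, against 2.40, 1.29 and 1.40 in controls, which overlapped (adjusted p = 0.610). RB1 transcripts were detected in both lines, 6.60-fold higher in H211 controls (11.2 ± 0.819) than in H82 controls (1.70 ± 0.608; adjusted p = 1.78e-07). A transcript level does not say whether the RB1 protein is made or intact.

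RBL1 (chr20:36996349-37095995) encodes p107, itself a gene driven by E2F. In H82 the libraries held 9.23, 8.71 and 10.3 with ORY-1001, against 12.3, 13.2 and 12.1 in controls, with no overlap. The log2 change was -0.38 (interval -0.68 to -0.08, adjusted p = 0.0438). RBL1 kept the call in 12 of 23 alternatives, losing it with a pseudocount of 0.1, no filter, quantile normalization or totals without mitochondrial genes. It lost the call on leaving out any of 7 single libraries (all but H82 ORY-1001 replicate 3, H211 ORY-1001 replicates 1 and 3 and H211 control replicates 1 and 3), with adjusted p between 0.0185 and 0.127. In H211 it was at 6.74, 6.51 and 5.13 with ORY-1001, against 10.3, 8.22 and 6.55 in controls. These overlapped, and the log2 change of -0.38 was not called (adjusted p = 0.0777), though leaving out H211 control replicate 3 gave -0.53 (adjusted p = 0.0170). Without the 4 libraries apart in blood transcripts, which leaves that replicate as the one H211 control, the value was 0.01 (adjusted p = 0.970). RBL1 averaged 8.36 ± 1.89 in H211 controls and 12.5 ± 0.618 in H82 controls (adjusted p = 0.00292).

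RBL2 (chr16:53433977-53491649) encodes p130, the pocket protein of quiescent cells. The H82 values were 8.07, 7.44 and 7.28 with ORY-1001, against 9.10, 8.87 and 9.43 in controls, with no overlap. The log2 change was -0.24 (interval -0.43 to -0.05, adjusted p = 0.0437). RBL2 kept the call in 10 of 23 alternatives, losing it with a pseudocount of 5, no filter, quantile normalization or a replicate block. That call was lost on leaving out any of 8 single libraries (all but H82 ORY-1001 replicate 1 and the 3 H211 ORY-1001 libraries), with adjusted p between 0.0112 and 0.119, and without the 4 libraries apart in blood transcripts (log2 change -0.21, adjusted p = 0.144). In H211 the libraries held 11.97, 14.8 and 15.5 with ORY-1001, against 14.4, 15.7 and 15.2 in controls, which overlapped (adjusted p = 0.469). H211 controls were 1.65-fold above H82 controls (adjusted p = 1.73e-05). RBL2 shares 610 bases with AKTIP on the other strand, whose level was 12.01 with ORY-1001 and 11.1 in controls in H82, and 30.4 with ORY-1001 and 29.01 in controls in H211.

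**Figure D2:**
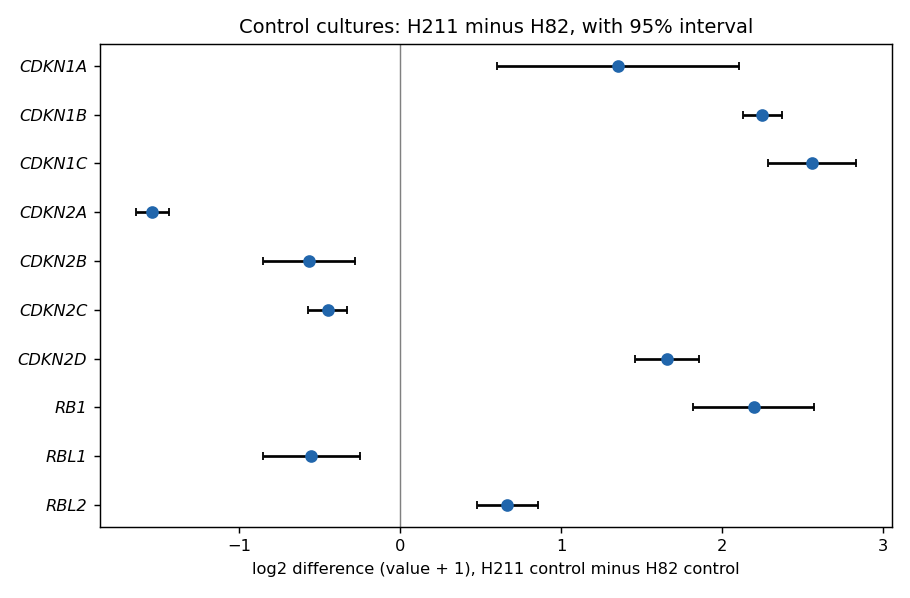
Difference between the control cultures, H211 minus H82, on the log2(value + 1) scale (horizontal axis) for each member, with 95% intervals. CDKN1C lies highest at 2.56 and CDKN2A lowest at -1.54, and no interval reaches 0; CDKN1A and CDKN1C reached the minimum for a test only with the H211 libraries.

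Read by direction, 2 members rose in H82 (CDKN2C and CDKN2A, against 19.1% of all genes) and 4 fell (CDKN1B, CDKN2D, RBL1 and RBL2, against 23.9%). The median log2 change of the 10 members was -0.20 in H82, against -0.02 over all genes tested. In H211, 1 rose (CDKN2A, against 8.95% of all genes) and 1 fell (CDKN2D, against 9.61%), with a median of -0.08 against -0.002 over all genes. Treated and control libraries did not overlap for 52.3% of all genes in H82 and for 35.4% in H211.

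Whether a gene responded differently in the lines was tested as the H211 effect minus the H82 effect, and 2 of 10 members were called, against 32.1% of all genes. CDKN2C differed by -0.63 (interval -0.80 to -0.46, adjusted p = 0.000134), lower in H211, as for 14.3% of genes, and this held in all 22 alternatives that could be run. CDKN1B differed by 0.24 (interval 0.06 to 0.41, adjusted p = 0.0387), higher in H211, as for 17.8% of genes. The CDKN1B call was kept in 8 of 22 alternatives and lost without any of 9 single libraries (all but H82 ORY-1001 replicate 1, H82 control replicate 3 and H211 control replicate 2), with adjusted p between 0.0229 and 0.0874, and without the 4 libraries apart in blood transcripts (0.31, adjusted p = 0.103). For CDKN2D the fall in H211 and that in H82 differed by -0.30 (interval -0.58 to -0.01, adjusted p = 0.102), and it reached 0.0412 without H82 control replicate 1. CDKN2B differed by 0.52 (interval 0.11 to 0.92, adjusted p = 0.0512), and by an adjusted p of 0.0331 without H82 control replicate 1 and 0.0429 without H211 control replicate 3. CDKN2A differed by 0.06, with an interval of -0.08 to 0.21 (adjusted p = 0.503). For RBL1 the interval was -0.43 to 0.42 (adjusted p = 0.995), wide enough to hold the change measured in either line.

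**Figure D3:**
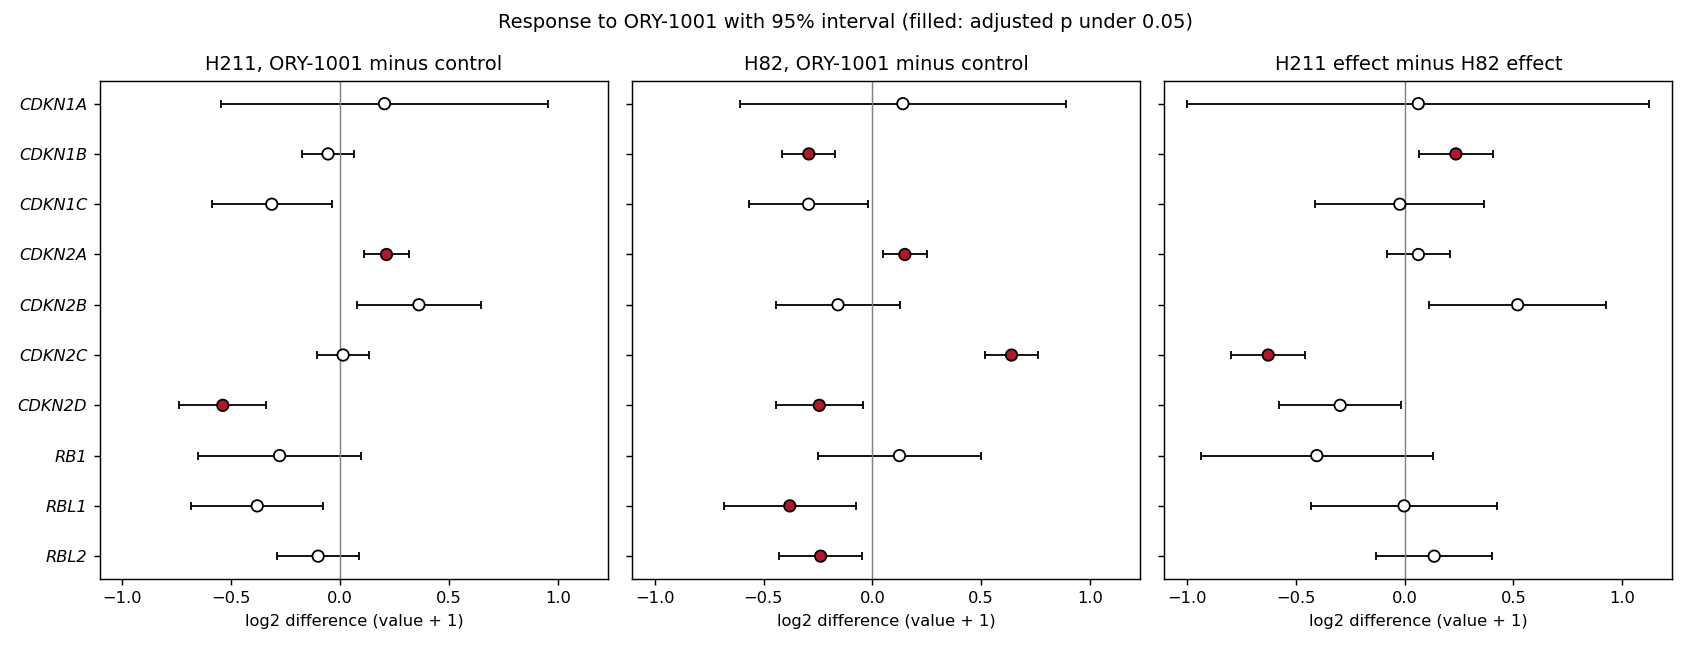
Change with ORY-1001 in H211 (left) and H82 (middle), and the H211 effect minus the H82 effect (right), on the log2(value + 1) scale (horizontal axis) with 95% intervals; filled points have an adjusted p under 0.05. CDKN2C stands at 0.01 in H211 and 0.64 in H82, and CDKN2D at -0.54 in H211 and -0.24 in H82.

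Summed by family, the 4 INK4 genes reached 419, 390 and 380 in H82 with ORY-1001 and 341, 346 and 350 in H82 controls, and 160, 165 and 169 in H211 with ORY-1001 against 154, 153 and 163 in H211 controls. These are sums of levels, given as a description. CDKN2A made up 84.7% of the INK4 sum in treated and 87.5% in control H82, and 72.9% in treated and 66.1% in control H211. The share of CDKN2C was 13.2% in treated and 9.64% in control H82, and that of CDKN2D was 11.6% in treated and 18.0% in control H211.

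The CIP/KIP sum was 9.11 ± 0.696 with ORY-1001 and 11.2 ± 0.987 in controls in H82, and 59.0 ± 0.922 with ORY-1001 and 62.3 ± 1.63 in controls in H211. CDKN1B held 87.5% of it in treated and 88.9% in control H82, and 83.2% in treated and 82.1% in control H211. The RB family summed to 19.0 ± 0.653 with ORY-1001 and 23.4 ± 0.457 in controls in H82, and to 29.2 ± 1.79 with ORY-1001 and 34.6 ± 2.34 in controls in H211. RB1 was 10.2% of that sum in treated and 7.23% in control H82, and 30.9% in treated and 32.3% in control H211. RBL1 was the largest part in H82 and RBL2 in H211.

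**Figure D4:**
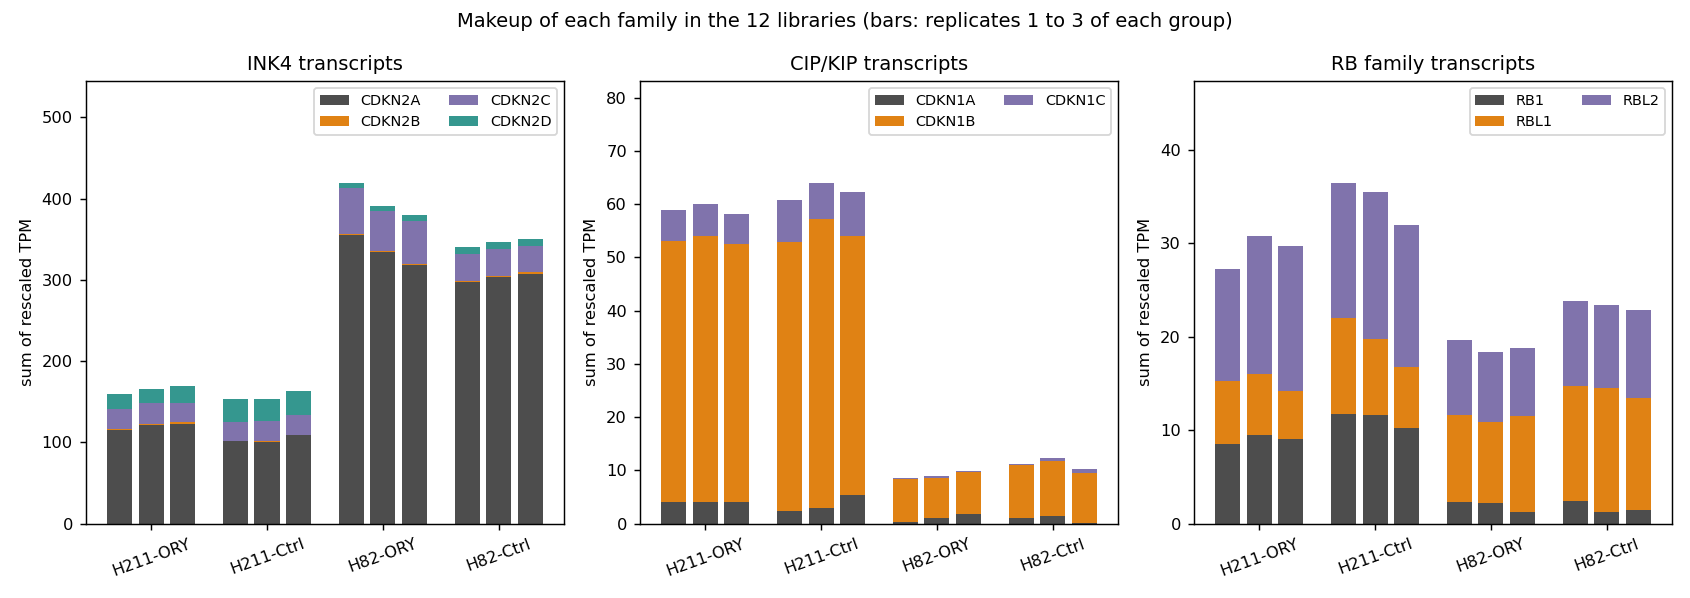
Sum of rescaled TPM (vertical axis) over the INK4, CIP/KIP and RB family genes in each of the 12 libraries, stacked by gene; the 3 bars of a group are replicates 1 to 3. The INK4 sum is larger in H82, mostly as CDKN2A, while the CIP/KIP sum is larger in H211, mostly as CDKN1B.

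Genes whose pattern was most like that of a called member were sought among all genes tested, by Pearson's r over the 12 libraries after centring each line, so that shared drug effects drive the likeness. For CDKN2C these were SPHK1 (r = 0.986), FAM162A (0.986) and SYNGR2 (0.984). SPHK1, a sphingosine kinase, changed by 0.79 in H82 and 0.01 in H211 on the log2 scale. For CDKN2D they were OLMALINC (0.954), ALDH1A1 (0.951) and KNTC1 (0.951), and ALDH1A1, an aldehyde dehydrogenase, changed by -0.53 in H82 and -1.90 in H211. For CDKN1B they were FBXO25 (0.961), NBR1 (0.954) and TRERF1 (0.953), for CDKN2A RWDD1 (0.969), MRPL9 (0.966) and TSPAN6 (0.962), for RBL1 AMBRA1 (0.955), ENTPD7 (0.954) and RBBP5 (0.954), and for RBL2 TMEM214 (0.939), ZNF771 (0.934) and NUDT10 (0.887). The fourth gene for CDKN2C had r = 0.984, so the order among the nearest is not sharp. Among the members themselves, CDKN2A ran against CDKN2D (r = -0.875) and RBL1 (r = -0.863), and CDKN2C against CDKN1B (r = -0.818).

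The pathway around these genes was described with 7 gene lists. Over all genes tested, 19.1% rose and 23.9% fell in H82, and 8.95% rose and 9.61% fell in H211. The list counts are to be read against those shares. Of 16 D-type cyclins, CDKs and their partners, 3 rose and 3 fell in H82, and 2 rose and 3 fell in H211. CCND3, a D-type cyclin that the INK4 proteins compete with, was at 18.8 with ORY-1001 and 30.2 in controls in H82 (log2 change -0.66, adjusted p = 2.09e-06). CCNA2, the S phase cyclin A, fell in both lines, by 0.37 in H82 and by 0.20 in H211 (adjusted p = 4.00e-05 and 0.00843). CDK7, the kinase that activates other CDKs, rose in H82 (0.40, adjusted p = 0.00338), its assembly factor MNAT1 rose in H211 (0.38, adjusted p = 0.00217), and CDK2 fell in H211 (-0.18, adjusted p = 0.0185).

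Of 16 E2F factors, their DP partners and MuvB core genes, 3 rose and 5 fell in H82, and 2 rose and 6 fell in H211. RBBP4, a histone chaperone of the MuvB core, was at 347 with ORY-1001 and 479 in controls in H82 (-0.46, adjusted p = 1.53e-06). E2F4, the main partner of p107 and p130, rose in H82 (0.45, adjusted p = 7.40e-06), and the activator E2F1 fell there (-0.35, adjusted p = 0.000271). In H211, E2F8 (-0.47, adjusted p = 0.000491), TFDP2 (-0.42, adjusted p = 0.000817) and E2F2 (-0.43, adjusted p = 0.00411) fell. Of 20 E2F targets of DNA replication, 4 rose and 5 fell in H82, and 0 rose and 7 fell in H211 (limma; at an unadjusted p under 0.05, 0 and 9). The origin licensing factor CDT1 was at 43.6 with ORY-1001 and 99.3 in controls in H82 (-1.17, adjusted p = 4.25e-06). The helicase subunit MCM3 fell in both lines (-0.46 in H82, adjusted p = 3.94e-06, and -0.22 in H211, adjusted p = 0.00218), the clamp loader subunit RFC3 rose in H82 (0.37, adjusted p = 1.95e-05), and RRM2 (-0.31, adjusted p = 0.00325) and MCM2 (-0.25, adjusted p = 0.0159) fell in H211.

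Of 19 tested p53 targets, 4 rose and 6 fell in H82, and 4 rose and 3 fell in H211. SESN2, a stress-induced regulator of mTORC1, was at 1.62 with ORY-1001 and 7.99 in controls in H82 (-1.78, adjusted p = 1.04e-07), where CCNG1 also fell (-0.60, adjusted p = 6.03e-06) and TP53INP1 rose (0.59, adjusted p = 0.000199). In H211, BTG2 rose (0.83, adjusted p = 5.09e-05) and the BH3-only gene BBC3 fell (-0.75, adjusted p = 0.000376). The death receptor FAS was at 2.70 with ORY-1001 and 0.752 in controls in H211 (log2 change 1.09). FAS is in the count of genes that rose there. It passed the minimum through the treated H211 libraries alone, so its change is given as a description. Of 15 genes of ubiquitin ligases that act on CDK inhibitors, 3 rose and 1 fell in H82, and 0 were called in H211 in either direction (limma), where 1 was higher and 1 lower at an unadjusted p under 0.05. CUL4B fell (-0.46, adjusted p = 0.000120), and SKP1 (0.39, adjusted p = 0.000308) and CUL4A (0.27, adjusted p = 0.00259) rose. Of 14 polycomb genes, which encode repressors known to act on the CDKN2A locus, 1 rose and 7 fell in H82 and 1 rose and 1 fell in H211. PCGF2 fell (-0.59, adjusted p = 0.000140) and EZH2 rose (0.30, adjusted p = 0.000573) in H82, and SUZ12 fell in H211 (-0.22, adjusted p = 0.0264).

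Of 13 tested genes that lie beside members, 0 rose and 2 fell in H82 (limma; also 0 and 2 at an unadjusted p under 0.05), and 1 rose and 2 fell in H211. ITM2B, near RB1, was at 78.5 with ORY-1001 and 120.1 in controls in H82 (-0.61, adjusted p = 1.55e-05), and FAF1, near CDKN2C, was at 107 with ORY-1001 and 116 in controls (-0.12, adjusted p = 0.0278), opposite to CDKN2C in sign. In H211, SAMHD1, near RBL1, rose (0.45, adjusted p = 0.00356), and KCNQ1 (-0.61, adjusted p = 0.00156) and PHLDA2 (-0.32, adjusted p = 0.0407), both near CDKN1C, fell. MTAP, near CDKN2A, was at 29.2 with ORY-1001 and 31.0 in controls in H82, and at 19.4 with ORY-1001 and 20.3 in controls in H211, with neither change called. NAP1L4, SLC22A18, RCBTB2, CHD9, APOLD1, SRSF3 and CDKN2B-AS1 were not called in either line, and DMRTA1, KCNQ1OT1 and LPAR6 were too low to test.

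The list counts in H211 rested on few libraries. The 7 E2F targets that fell there were 4 without ORY-1001 replicate 1, 3 without ORY-1001 replicate 3, 3 without control replicate 1, 4 without control replicate 3 and 0 without the 4 libraries apart in blood transcripts, and the 6 E2F and DP genes were 4 to 6 without single libraries and 1 without those 4. The 3 cyclin and CDK genes that fell in H211 were 1 without control replicate 2 or 3, and the 4 p53 targets that rose there were 2 without ORY-1001 replicate 1 or 2. In H82 the 4 p53 targets that rose were 2 without ORY-1001 replicate 1 or 3. Counts of 1 or 2 genes in a list ranged from 0 to 2 without single libraries. Of the H211 genes named here, TFDP2 and BTG2 kept their calls in all 23 alternatives. FAS kept its call in the 18 that could be run, and it could not be tested whenever a treated H211 library was left out. CDK2, MCM2, SUZ12 and PHLDA2 lost theirs on leaving out single libraries, with adjusted p of up to 0.247, 0.231, 0.281 and 0.492 over the alternatives, and the others lost it without the 4 libraries. In H82 each gene named from the lists kept its call in every alternative but FAF1, which kept it in 16 of 23 and lost it without the 4 libraries (adjusted p = 0.109).

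**Figure D5:**
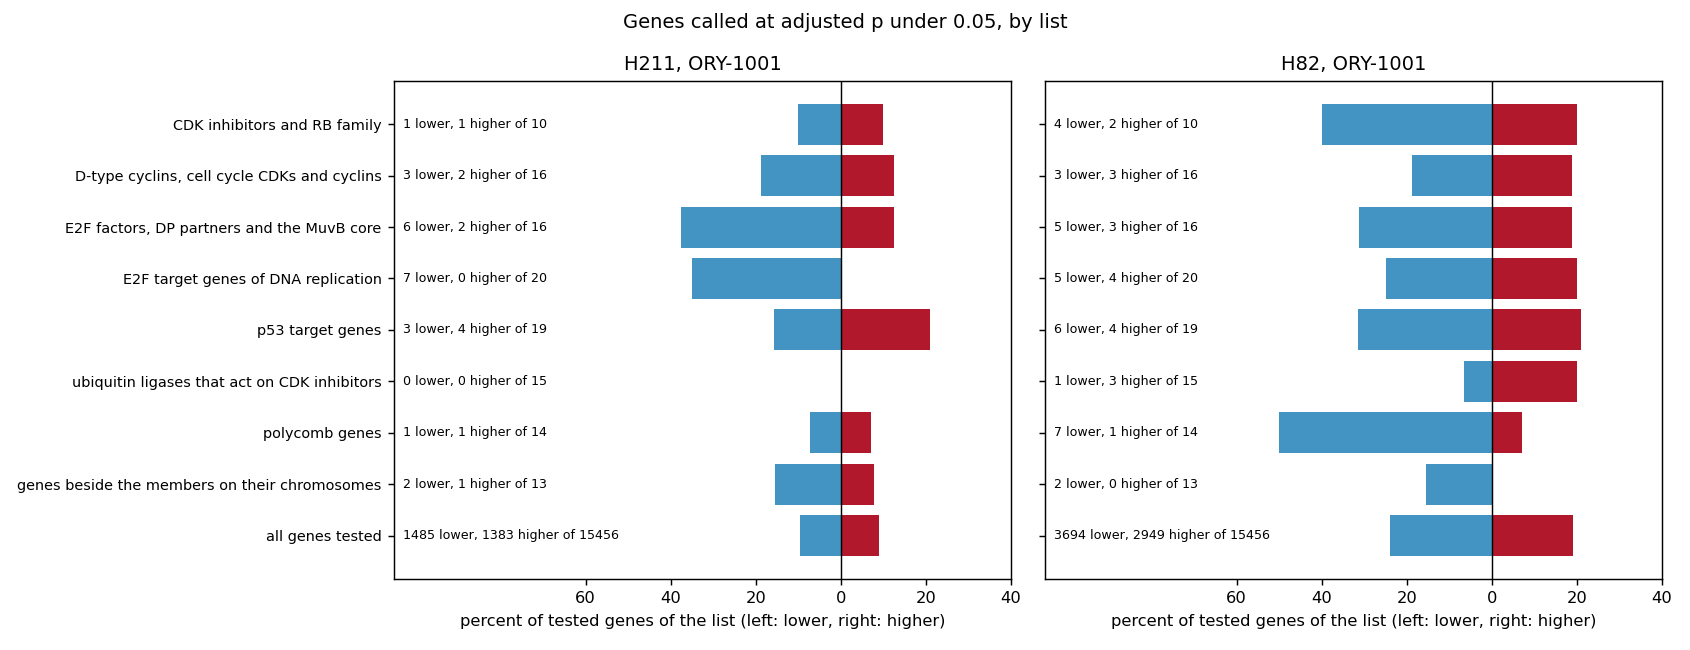
Percent of tested genes in each list called higher (red, right of 0) and lower (blue, left of 0) with ORY-1001 at an adjusted p under 0.05, in H211 (left) and H82 (right), with the counts printed beside the bars. All genes tested stand in the bottom row, at 8.95% higher and 9.61% lower in H211 and at 19.1% higher and 23.9% lower in H82.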

How the data were processed

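Messenger RNA was enriched with oligo(dT) beads, prepared with the NEBNext Ultra II kit and sequenced in paired ends, per the labels' protocols. The build was hg38, and the tools listed were sleuth 0.30.0, Salmon 1.1.0, DESeq2, featureCounts (Subread 1.5.2), STAR 2.5.2b, Trimmomatic 0.36 and R 4.0.4, per the submitters' processing notes, with roles and order not given. The deposited signal is a TPM-like level, 1 column per library, whose unequal column totals set it apart from plain TPM. A rescaling between libraries was inferred from those totals, which do not establish it alone. Tests planned for TPM were kept for this deposited signal. It holds no read counts, so depth is unknown and no counting interval is given; 27 symbols had turned into dates and were not named.

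Values were taken as log2(value + 1), which understates changes of low genes. Genes at 1 or more in at least 3 libraries were kept, and 4 group means over all 12 libraries were fitted in limma 3.58.1 (R 4.3.3; moderated by a trended prior, two-sided, Benjamini-Hochberg over 15456 genes, threshold 0.05). Ratios are of group means. The code was tested on simulated data. The members, lists and markers were chosen with earlier results of these data known. The rule named all 10 members, per list and line the 3 called genes of smallest p, every measured neighbour, and the 3 genes most like each called member. A gene that the rule named in the polycomb list is not reported here. Positions come from GENCODE 29 on GRCh38 and need not match the authors' annotation. Alternatives changed the pseudocount, filter, scaling, variance prior, replicate block, lines fitted together and libraries left out. Figures were drawn with matplotlib 3.10.9.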

Additional observations from a re-analysis of the deposited data

Results flagged for a closer look

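The response to ORY-1001 differed between the lines in 2 members by the test of the difference itself. For CDKN2C, the p18 gene, the H211 effect minus the H82 effect was -0.63 on the log2 scale (adjusted p = 0.000134, limma); its rise was called in H82 and not in H211. CDKN1B, the p27 gene, had an H211 effect 0.24 above its H82 effect (adjusted p = 0.0387), and its fall was called in H82 and not in H211. The CDKN1B difference was the less firm: its call was kept in 8 of 22 alternatives and lost without any of 9 single libraries of 12, and without the 4 libraries apart in blood transcripts (adjusted p = 0.103).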

How the results depend on the processing

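In the control cultures all 10 members kept their direction and call in each alternative in which they were tested. For CDKN1A and CDKN1C, where the minimum favoured H211, this remains a description. Dropping mitochondrial genes from the totals moved the median of all genes there by 0.168 (log2), and every member kept its direction relative to it. The drug effects were less firm. In H82, 6 members were called (2 higher, 4 lower), against 3 (1 lower) with no filter, 3 (1 higher, 2 lower) with quantile normalization, 2 lower with a pseudocount of 5 or with totals without mitochondrial genes, and 1 higher with a variance prior without a trend. Without single libraries 2 to 5 were called in H82, 1 to 2 higher and 1 to 3 lower. In H211, 1 member fell, against 2 with a pseudocount of 5 and 1 to 2 without single libraries, where 987 to 1524 of all genes were called lower. For the difference between lines (1 higher, 1 lower), a pseudocount of 5 and quantile normalization each gave 0 higher and 2 lower, no filter and totals without mitochondrial genes each left 1 call with 0 higher, the prior without a trend gave 2 higher, and single libraries left out gave 1 to 3 calls, 0 to 1 higher and 1 to 2 lower. Without the 4 libraries apart in blood transcripts, which leaves 1 H211 control assumed to vary like the other groups, H211 had 559 genes called (312 higher, 247 lower) and 1 member (0 higher), and the difference 2899 genes (1687 higher, 1212 lower) and 1 member (0 higher); that setting has fewer samples. Signs turned for uncalled members only. With a pseudocount of 0.1 the difference was -0.13 for CDKN1A and 0.54 for CDKN1C; for RBL1 it was 0.026 with a pseudocount of 5 and 0.0026 with median-of-ratios scaling, and for CDKN1C 0.044 with quantile normalization. CDKN2C in H211 was -0.047 with totals without mitochondrial genes. Without the 4 libraries, CDKN1A was -0.14 in H82, -0.32 in H211 and -0.18 for the difference, CDKN1B 0.019 and RBL1 0.015 in H211, and the difference was -0.059 for CDKN2A and 0.46 for RBL1. Without single libraries CDKN1A ranged from -0.19 to 0.46 in H82, CDKN2C from -0.0090 to 0.037 and RBL2 from -0.17 to 0.0030 in H211, and the difference from -0.26 to 0.40 for CDKN1A, -0.16 to 0.093 for CDKN1C and -0.15 to 0.14 for RBL1. The cause was not tested. Samples sharing a replicate number did not deviate together (r = -0.0805 to 0.0449), so the numbers were not taken as pairs; with a replicate block, 6429 genes were called in H82 and 2497 in H211, and the 1 member call that changed was RBL2 in H82 (adjusted p = 0.0583). Depth being unknown, no counting error can be given for low members such as CDKN1A, CDKN1C and CDKN2B.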
